A study of Homo sapiens with 4 samples.

Results

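Let-7 is a family of small regulatory RNAs that DICER1 cuts out of hairpin precursors. Loaded into an Argonaute protein, a let-7 RNA pairs through its seed with sites in the 3′ untranslated region (3′ UTR) of an mRNA, which lowers the translation and the stability of that mRNA. The family is known for holding down growth-promoting and fetal genes in differentiated tissue, and for being low in many tumours. Its best known targets include the chromatin proteins HMGA1 and HMGA2, the RNA-binding proteins LIN28B, IGF2BP1, IGF2BP2 and IGF2BP3, the growth-signalling GTPase NRAS and the DNA-binding protein ARID3B.

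These 8 published targets were taken by gene symbol out of 26364 symbols in the count table, and all 8 had a row. RNA was sequenced from polysomes, mRNAs carrying several ribosomes, of HCT116 cells, an established human colorectal carcinoma line. Splitting the polysomes by the number of ribosomes gave 4 libraries: Dicer1 knockout heavy, Dicer1 knockout light, wild type heavy and wild type light. Heavy means 10 or more ribosomes on an mRNA and light means 9 or fewer. Each group had 1 library, and both fractions of a genotype were taken as coming from 1 gradient, since the labels name no other. The labels do not say how DICER1 was altered or whether the knockout line was 1 clone. A difference between the genotypes therefore has no replicate check and no p-value. Small RNAs were not measured, so the amount of let-7 in these cells is not known from these data.

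Mature let-7 sequences are shown because the search for target sites rests on their shared seed. In RefSeq (GRCh38.p14), 11 distinct mature RNAs from 14 loci carry the seed GAGGUAG at bases 2 to 8. They are let-7a to let-7g, let-7i, miR-98, miR-4458 and miR-4500. The 9 classical members, with the seed in capitals, read:
let-7a-5p: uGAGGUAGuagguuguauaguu
let-7b-5p: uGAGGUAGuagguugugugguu
let-7c-5p: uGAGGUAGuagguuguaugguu
let-7d-5p: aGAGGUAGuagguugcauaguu
let-7e-5p: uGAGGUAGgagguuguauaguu
let-7f-5p: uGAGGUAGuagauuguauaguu
let-7g-5p: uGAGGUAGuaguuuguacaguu
let-7i-5p: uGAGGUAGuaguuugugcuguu
miR-98-5p: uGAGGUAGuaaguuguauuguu
Outside the seed these sequences differ from let-7a at 1 to 4 of 22 bases, so that a seed match does not tell them apart.

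All 8 targets held at least 1 let-7 seed match in the annotated 3′ UTR. The letters searched on the transcript strand were CTACCTCA (an 8mer), CTACCTC without the final A (a 7mer-m8) and TACCTCA without the leading C (a 7mer-A1). An 8mer was counted once and not again as the 7mers inside it. The 3′ UTRs were those of the canonical transcripts of GENCODE release 44 (GRCh38), and a match is a stretch of letters, not a measured site. For the 5 targets that reached 100 counts in every library, the 30 bases that end at each match follow, with the match in capitals:
HMGA1 7mer-m8, chr6:34245821-34245850, plus strand: tccatttttcctctgttcacaaaCTACCTC
HMGA2 8mer, chr12:65963291-65963320, plus strand: agggggcgccaacgttcgatttCTACCTCA
HMGA2 7mer-A1, chr12:65964376-65964405, plus strand: ccatgaaagacctgaataccactTACCTCA
HMGA2 7mer-m8, chr12:65964525-65964554, plus strand: caatatatccccactactcaataCTACCTC
HMGA2 7mer-A1, chr12:65964888-65964917, plus strand: ttaaatattaccctccaagtctgTACCTCA
HMGA2 7mer-m8, chr12:65964937-65964966, plus strand: tggactaattgacttgcaaagacCTACCTC
HMGA2 7mer-m8, chr12:65965790-65965819, plus strand: tgttgtacaatcaaaacacactaCTACCTC
HMGA2 7mer-A1, chr12:65965810-65965839, plus strand: ctactacctcttaagtcccagtaTACCTCA
IGF2BP2 8mer, chr3:185644220-185644249, minus strand: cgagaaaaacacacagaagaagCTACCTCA
IGF2BP2 7mer-A1, chr3:185644205-185644234, minus strand: gaagaagctacctcaggtgttttTACCTCA
IGF2BP2 7mer-A1, chr3:185643202-185643231, minus strand: aagctcactagtaagtgcaggcaTACCTCA
IGF2BP3 8mer, chr7:23311795-23311824, minus strand: ttaaacgtgcatttttactcaaCTACCTCA
NRAS 7mer-m8, chr1:114707902-114707931, minus strand: tatttgagaagttctcagaataaCTACCTC
NRAS 7mer-A1, chr1:114705496-114705525, minus strand: gattgctgaaaagaattctagttTACCTCA
Each match lies in the last exon, in the 3′ UTR; the stretch printed for the HMGA2 8mer starts in the stop codon.

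The genes lie at chr6:34236873-34246231 (HMGA1), chr12:65824460-65966291 (HMGA2), chr6:104936616-105083332 (LIN28B) and chr17:48997385-49056145 (IGF2BP1). The others lie at chr3:185643130-185825042 (IGF2BP2), chr7:23310209-23470491 (IGF2BP3), chr1:114704469-114716771 (NRAS) and chr15:74541206-74598131 (ARID3B). The targets differed widely in how many matches they held. HMGA2 had the most, 7 in a 3′ UTR of 2999 nucleotides. LIN28B had 5 in 4549 nucleotides, IGF2BP1 had 5 in 6701 and ARID3B had 5 in 2357. IGF2BP2 had 3 in 2401 nucleotides, NRAS had 2 in 3625, IGF2BP3 had 1 in 2153 and HMGA1 had 1 in 1347. Of the 29 matches, 8 were 8mers, and 5 of the 8 targets had at least 1 of these. Among 18971 protein-coding genes of the table, 15.8% had any match, 3.74% had an 8mer and 0.643% had 3 or more. Longer 3′ UTRs held matches more often: 25.4% of the 3714 genes with 3′ UTRs of 2000 to 4000 nucleotides had at least 1. Published let-7 targets were partly found through such matches, so this share is not independent of how they were picked. Other annotated transcripts end elsewhere, and the HMGA2 transcript with the longest 3′ UTR, 7421 nucleotides, held 0 matches. A count per gene does not show which 3′ end an mRNA carried.

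**Figure D1:**
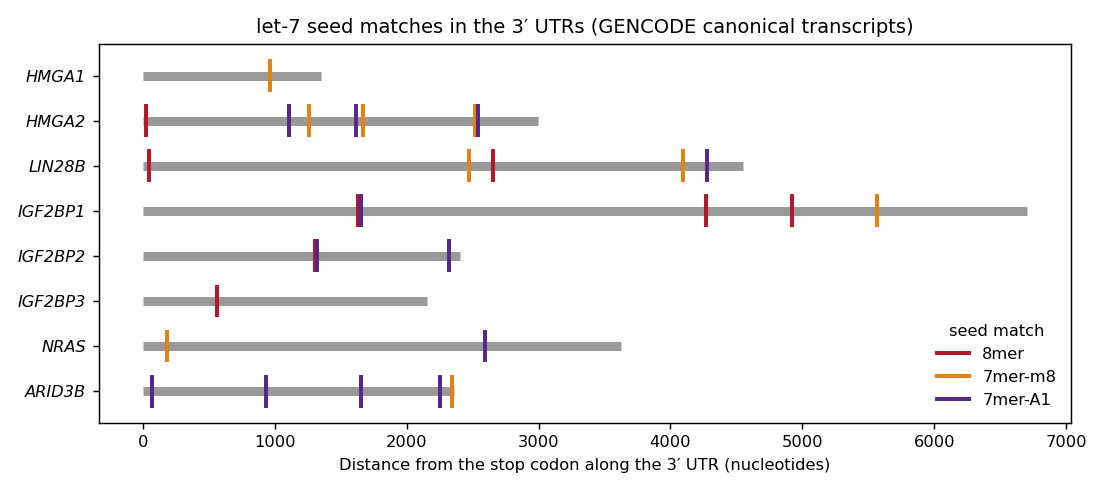
Position of let-7 seed matches in the 3′ UTR of each target. The horizontal axis is the distance from the stop codon in nucleotides, grey bars are the 3′ UTRs drawn to scale and coloured ticks are the 3 kinds of match. The 7 matches of HMGA2 are spread over 2999 nucleotides, while IGF2BP3 and HMGA1 have 1 match each.

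The libraries held 19238492 counts for knockout heavy, 17457116 for knockout light, 20933675 for wild type heavy and 19727010 for wild type light polysomes. Ribosomal RNA took 4.32% and 5.97% of the counts in the knockout heavy and light libraries and 2.61% and 3.59% in the wild type ones. DICER1 itself (chromosome 14) had 925 and 889 counts in the heavy and light libraries labelled knockout and 500 and 547 in the wild type ones. On the log2 scale the knockout-labelled libraries stood above the wild type by 0.95 in heavy polysomes (95% counting interval 0.79 to 1.10). In light polysomes they did so by 0.96 (0.81 to 1.11). The count over the whole gene goes the other way from a loss of the mRNA and says nothing of the enzyme, so the libraries are called labelled knockout throughout. Of 12 epithelial and intestinal markers, 6 had at least 50 counts in each library, led by EPCAM and the keratins KRT8, KRT18 and KRT19, while VIL1, CDX1, LGALS4, CEACAM5 and CDH17 had 0 to 2 counts. Of 18 markers of fibroblasts, endothelium and blood, COL1A1 was the only one that reached 50 counts in each library.

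The 8 mRNAs spanned from abundant to barely detectable. Levels are given as CPM (counts scaled to a fixed library size) after TMM, which sets libraries to a common scale, and between genes also per kilobase of the canonical transcript. HMGA1, a small architectural protein that binds AT-rich DNA, stood far above the others, at a mean over the 4 libraries of 1401 TMM-scaled CPM per kilobase. Next came IGF2BP2 at 33.7, HMGA2 at 33.6, NRAS at 26.0 and IGF2BP3 at 23.9, and the ranges of these 4 over the libraries overlapped, so their order is not resolved. ARID3B had 0.639 TMM-scaled CPM per kilobase, IGF2BP1 0.0851 and LIN28B 0.00451. The per-kilobase range of ARID3B, 0.425 to 0.848, did not overlap that of IGF2BP1, 0.0433 to 0.119.

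LIN28B, which blocks the maturation of let-7 precursors and is itself a let-7 target, was not detectable at this depth. It had 0 counts in either fraction of the labelled knockout, against 1 count in either fraction of the wild type. A count of 0 allows up to 3 counts, or 0.166 and 0.163 TMM-scaled CPM in the knockout heavy and light libraries. No fold is given, since all 4 libraries lie under that limit. IGF2BP1, which binds and stabilises mRNAs, had 15 counts in labelled knockout heavy against 14 in wild type heavy, and 7 in labelled knockout light against 23 in wild type light polysomes.

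**Figure D2:**
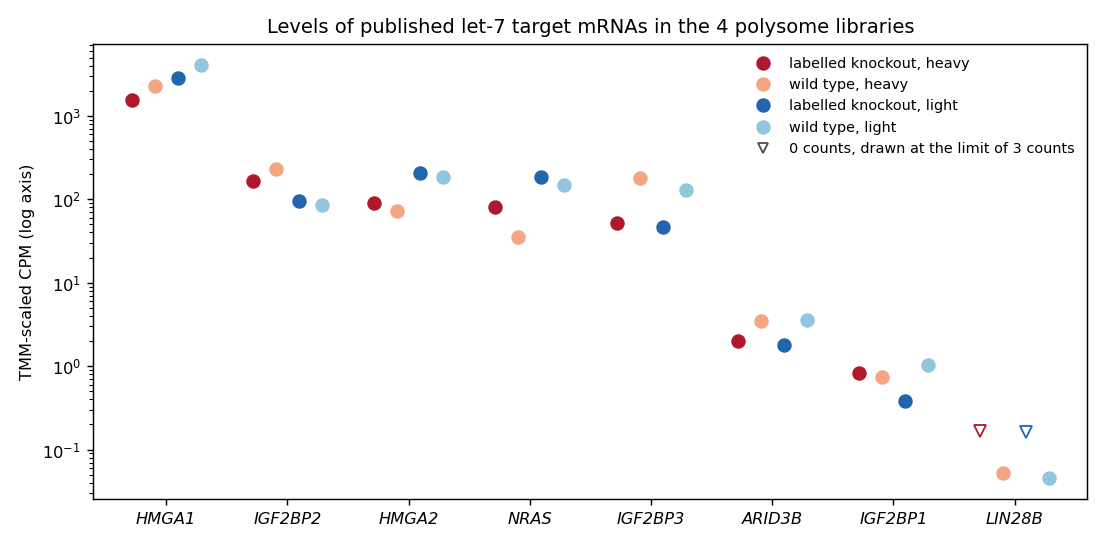
TMM-scaled CPM of each target on a log axis, 1 point per library (n = 1 per group). Targets are ordered by their mean level, and open triangles mark 0 counts, drawn at the limit of 3 counts. IGF2BP3 is lower in both labelled knockout libraries than in either wild type one, and NRAS is lowest in wild type heavy polysomes.

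The comparison of heavy with light polysomes asked how many ribosomes these mRNAs carried. HMGA1, HMGA2 and NRAS lay toward light polysomes and IGF2BP2 toward heavy ones. The other 3 of the 7 targets that passed the filter on low counts were not called either way, and LIN28B did not pass it. Of the 13574 genes in the fit, 30.0% passed toward heavy polysomes and 29.3% toward light ones, so 1 and 3 of 7 targets are shares of a frequent outcome. The fit was edgeR's quasi-likelihood test, blocked by gradient and with Benjamini-Hochberg adjustment over all genes; the gradients of both genotypes stand as the only repeats.

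NRAS, a GTPase that passes growth signals to the ERK pathway, was the one farthest toward light polysomes. It had 1454 counts in heavy and 3432 in light polysomes of the labelled knockout, and 675 in heavy and 3251 in light polysomes of the wild type. The log2 heavy to light ratio was -1.22 (counting interval -1.30 to -1.13) in the labelled knockout and -2.05 (-2.16 to -1.93) in the wild type, and the fitted value was -1.63 (SE 0.29, edgeR adjusted p = 1.12e-07). Both gradients put NRAS on the light side, and the wild type gradient did so more strongly.

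HMGA2, the fetal paralogue of HMGA1 and the classical let-7 target, had 1641 counts in heavy and 3788 in light polysomes of the labelled knockout. In the wild type it had 1377 in heavy and 4055 in light polysomes. The log2 ratio of heavy to light was -1.18 in the labelled knockout and -1.34 in the wild type, with a fitted value of -1.26 (SE 0.29, edgeR adjusted p = 4.46e-05). The light libraries were thus above the heavy ones by 2.27-fold in the labelled knockout and 2.53-fold in the wild type.

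HMGA1 had 28012 counts in heavy and 52226 in light polysomes of the labelled knockout, and 42808 in heavy and 90434 in light polysomes of the wild type. Its log2 ratios were nearly equal, -0.88 in the labelled knockout and -0.86 in the wild type (fitted -0.87, SE 0.34, edgeR adjusted p = 0.0194). The call was lost with RLE scaling (edgeR adjusted p = 0.0791) and without the gradient block (0.0821). It was kept with DESeq2 (adjusted p = 0.00483). HMGA1 has near-identical processed pseudogenes, so that its reads may be shared with copies and its counts are uncertain.

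IGF2BP2, an RNA-binding protein of the same family as IGF2BP1, was the only target called toward heavy polysomes. It had 3019 counts in heavy and 1731 in light polysomes of the labelled knockout, and 4343 in heavy and 1897 in light polysomes of the wild type. The fitted log2 ratio was 1.12 (SE 0.29, edgeR adjusted p = 0.000323), with 0.82 in the labelled knockout and 1.41 in the wild type alone. IGF2BP3 had a fitted ratio of 0.32 (edgeR adjusted p = 0.311), ARID3B of 0.03 (adjusted p = 0.952) and IGF2BP1 of 0.16 (adjusted p = 0.795), none of them called.

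The 3 targets called light have the shortest coding sequences, with 321 nucleotides for HMGA1, 327 for HMGA2 and 567 for NRAS. Those of IGF2BP1, IGF2BP2, IGF2BP3 and ARID3B run from 1680 nucleotides for ARID3B to 1797 for IGF2BP2. An mRNA with a short coding sequence has room for fewer ribosomes, and the part of coding length in these ratios was not tested. The scaling sets where 0 lies: with library totals in place of TMM, the median log2 ratio of heavy to light over all genes was -0.30 in place of -0.07. With library totals the fitted values of IGF2BP1 and ARID3B became -0.07 and -0.21.

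The second comparison was between genotypes, fraction by fraction, and asks whether let-7 targets were more abundant on polysomes when DICER1 was altered. They did not move together. NRAS and HMGA2 were higher in both fractions of the labelled knockout, HMGA1, IGF2BP3 and ARID3B were lower in both, and IGF2BP2 was lower in heavy polysomes with a light ratio near 0. Only differences of at least 2-fold were counted, and only where the higher library of the pair reached 100 counts, which 5 of the 8 targets did. In bulk libraries fewer molecules per cell and a different mix of cells cannot be told apart. The values below are log2 ratios of TMM-scaled CPM with a prior count of 2, and the intervals are 95% limits that cover counting error only.

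NRAS had 80.3 TMM-scaled CPM in labelled knockout heavy against 35.7 in wild type heavy polysomes, a log2 ratio of 1.17 (counting interval 1.04 to 1.30). In light polysomes it had 187 in the labelled knockout against 148 in the wild type, a log2 ratio of 0.34 (0.27 to 0.41). It was the only target at least 2-fold higher, in heavy polysomes, where 3.26% of 10690 genes were at least 2-fold higher. In light polysomes 0 targets were at least 2-fold higher, where 3.91% of 10992 genes were.

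HMGA2 had 90.6 TMM-scaled CPM in labelled knockout heavy against 72.8 in wild type heavy polysomes, and 206 in labelled knockout light against 184 in wild type light polysomes. The log2 ratios were 0.32 (counting interval 0.21 to 0.42) for heavy and 0.16 (0.10 to 0.23) for light polysomes. With 7 seed matches it held the most of the targets, and it stood 1.24-fold and 1.12-fold above the wild type.

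HMGA1 was lower in the labelled knockout by about the same amount in both fractions. It had 1547 TMM-scaled CPM in labelled knockout heavy against 2263 in wild type heavy polysomes, and 2841 in labelled knockout light against 4105 in wild type light polysomes. The log2 ratios were -0.55 (counting interval -0.57 to -0.53) and -0.53 (-0.55 to -0.52). HMGA1 stayed lower in both fractions of the labelled knockout with RLE, library totals, a prior count of 0.5 or ribosomal RNA left out of the library sizes.

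IGF2BP3, an oncofetal RNA-binding protein, showed the largest difference between the genotypes among the 5 targets. It had 52.5 TMM-scaled CPM in labelled knockout heavy against 180.0 in wild type heavy polysomes, and 47.2 in labelled knockout light against 129 in wild type light polysomes. The log2 ratios were -1.77 (counting interval -1.88 to -1.67) and -1.45 (-1.56 to -1.34), which is 3.42-fold and 2.73-fold lower. At least 2-fold lower were 2.60% of genes in heavy, 3.05% in light and 1.20% of 10418 genes in both fractions, and IGF2BP3 was the 1 target of 5 in each of these classes. MALSU1 on the opposite strand covers 17.8% of the exonic bases of IGF2BP3, and without the strand setting their reads cannot be told apart there. MALSU1 itself had log2 ratios of -0.62 in heavy and -0.02 in light polysomes.

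IGF2BP2 had 167 TMM-scaled CPM in labelled knockout heavy against 229.6 in wild type heavy polysomes, a log2 ratio of -0.46 (counting interval -0.53 to -0.39). In light polysomes it had 94.2 in the labelled knockout against 86.1 in the wild type, a log2 ratio of 0.13 (0.04 to 0.22). IGF2BP1 had log2 ratios of 0.14 (-0.84 to 1.13) in heavy and -1.24 (-2.35 to -0.14) in light polysomes, on 7 to 23 counts per library. With library totals the light ratio of IGF2BP2 was 0.04 (-0.05 to 0.14), and neither that value nor the heavy ratio of IGF2BP1 has a resolved direction. With TMM and with RLE, 0.18 (0.08 to 0.27), the light ratio of IGF2BP2 was above 0 and its interval left out 0. The median light ratio over all genes was 0.004 with TMM, 0.05 with RLE and -0.08 with library totals. Both ratios of IGF2BP3, the heavy ratio of IGF2BP2 and the light ratio of IGF2BP1 were lower in the labelled knockout with each scaling. The light ratio of IGF2BP1 rests on 7 and 23 counts.

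ARID3B, a DNA-binding protein of the ARID family, was lower in both fractions on few counts. It had 36 counts in labelled knockout heavy against 65 in wild type heavy polysomes, and 33 in labelled knockout light against 79 in wild type light polysomes. The log2 ratios were -0.76 (counting interval -1.33 to -0.18) and -0.96 (-1.53 to -0.39). Over the 5 targets with enough counts, the median log2 ratio was -0.46 in heavy and 0.13 in light polysomes, beside -0.04 and 0.00 over all genes. Both medians are the values of IGF2BP2, whose light ratio has no resolved direction with library totals. The 5 ran from -1.77 to 1.17 in heavy and from -1.45 to 0.34 in light polysomes.

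**Figure D3:**
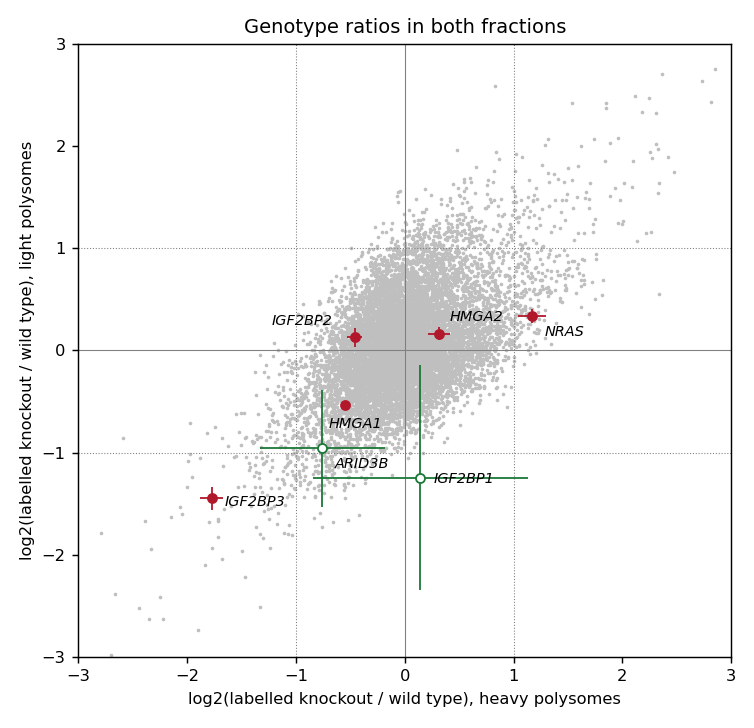
Log2 ratio, labelled knockout over wild type, in heavy (horizontal) and light polysomes (vertical). Grey points are the 10418 genes that reach 100 counts in both pairs, of which 29 lie outside the axes; filled points are the 5 targets with enough counts, open points are ARID3B and IGF2BP1, bars are 95% counting intervals and dotted lines mark 2-fold. IGF2BP3 lies beyond 2-fold lower in both fractions and NRAS beyond 2-fold higher in heavy polysomes.

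The third comparison asked whether the targets moved between fractions, as a shift, which is the difference of the log2 heavy to light ratios, labelled knockout less wild type. It uses the same 4 libraries as the comparisons above. Among the 5 targets with enough counts, NRAS had the largest shift toward heavy polysomes, 0.83 (counting interval 0.68 to 0.98), and HMGA2 had 0.15 (0.03 to 0.27). HMGA1 stood at -0.02 (-0.04 to 0.01), IGF2BP3 at -0.33 (-0.48 to -0.18) and IGF2BP2 at -0.59 (-0.71 to -0.47). The sign of HMGA1 depended on the scaling, with 0.13 (0.10 to 0.15) for library totals and -0.094 (-0.12 to -0.067) for RLE. The median shift over all genes moved likewise, from -0.05 with TMM to 0.09 with library totals and -0.12 with RLE. The scaling thus sets where 0 lies here too. With RLE the interval of HMGA2 also took in 0 (-0.04 to 0.20). Of these 5 targets, 0 shifted by 2-fold or more, beside 0.905% of 10834 genes toward heavy and 2.37% toward light polysomes. ARID3B, at 0.20 (-0.61 to 1.01), and IGF2BP1, at 1.39 (-0.09 to 2.87), had too few counts to be placed.

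The whole labelled knockout gradient was compressed relative to the wild type one, and the shifts of NRAS, HMGA2, IGF2BP2 and IGF2BP3 had the same sign as the median shift of genes with similar wild type ratios, while HMGA1 did not. Over the 10834 genes the SD of the log2 heavy to light ratio was 0.905 in the labelled knockout and 1.17 in the wild type, and a straight line through the genes had a slope of 0.709. With the genes put in 5 equal bins by their wild type ratio, NRAS and HMGA2 lay in the lowest bin, where the median shift was 0.39. IGF2BP2 lay in the highest bin, where it was -0.60, and IGF2BP3 in the next one down, where it was -0.24. HMGA1, with a shift of -0.02, lay in the bin next to the lowest, where it was 0.22. The wild type ratio sets the bins and the line and is also subtracted in the shift. Error in that ratio alone moves low bins up and high bins down, so a shared sign is partly built in. Relative to that line, an alternative added after the data were seen, NRAS stood at 0.24 and HMGA2 at -0.23. HMGA1 stood at -0.26, IGF2BP2 at -0.18 and IGF2BP3 at -0.18 from the line. The sign of HMGA2 thus turned and the value of NRAS fell from 0.83 to 0.24. Whether the compression comes from the cells or from the gradient cannot be told apart with 1 gradient per genotype.

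**Figure D4:**
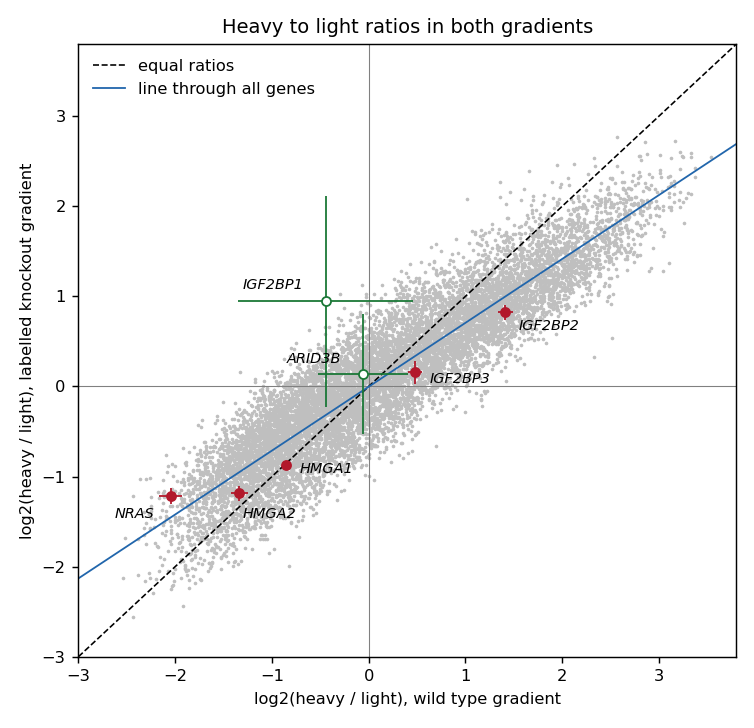
Log2 heavy to light ratio in the labelled knockout (vertical) and the wild type gradient (horizontal). Grey points are the 10834 genes that reach 50 counts in every library, the dashed line marks equal ratios and the solid line is the straight line through all genes, with slope 0.709; open points are ARID3B and IGF2BP1 and bars are 95% counting intervals. NRAS lies above both lines, and HMGA1 and HMGA2 lie near the dashed one.

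Other genes linked to let-7 gave context. Of 30 further published targets, 22 had enough counts, with a median log2 ratio (labelled knockout over wild type) of 0.25 in heavy and 0.22 in light polysomes. Above 0 were 15 of them in heavy and 14 in light polysomes, DICER1 itself among them, beside 46.7% and 52.4% of 10215 protein-coding genes. Both medians stayed above 0 with RLE, library totals and ribosomal RNA left out. CDK6, a kinase of the G1 phase with 1 seed match, had 4208 and 4049 counts in labelled knockout heavy and light polysomes, against 885 and 965 in wild type heavy and light polysomes. Its log2 ratios were 2.31 and 2.33, the highest of the list, and by the mean of both ratios DICER1 came next. In heavy polysomes CDK6 alone of the 22 was at least 2-fold higher, and 0 were at least 2-fold lower. Over all genes 3.26% were at least 2-fold higher and 2.60% lower there. In light polysomes CDK6 and CCND1 were at least 2-fold higher and E2F2, a cell cycle transcription factor, was at least 2-fold lower, at -1.03. Over all genes 3.91% were at least 2-fold higher and 3.05% lower in light polysomes. CCND1 was chosen after its values were seen. By the mean of both ratios E2F2 was lowest and MYC, a growth transcription factor, next, at -0.36 in heavy and -0.27 in light polysomes. In the fit of heavy against light, 8 of the 22 were called heavy and 8 light, with a median log2 ratio of 0.18, beside 30.0% heavy and 29.3% light over all genes.

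Of 10 genes that act on let-7 precursors, 9 had enough counts and 0 differed 2-fold between the genotypes in either fraction. A 2-fold difference was rare over all genes too: 3.26% were higher and 2.60% lower in heavy polysomes, and 3.91% and 3.05% in light ones. Their median log2 ratio was -0.33 in heavy and -0.14 in light polysomes. In each fraction 2 of 9 were above 0, beside 46.7% of protein-coding genes in heavy and 52.4% in light polysomes. PAPD4, a poly(A) polymerase, had -0.38 and -0.59, and ZCCHC11, which adds uridines to let-7 precursors bound by LIN28 proteins, had -0.34 and -0.52. At the upper end ADAR, an RNA-editing enzyme, had 0.21 and -0.05. DIS3L2, the nuclease that degrades uridylated let-7 precursors, had -0.33 and 0.27. In the fit of heavy against light, 5 of the 9 were called heavy, among them DIS3L2 at 2.29 (edgeR adjusted p = 4.41e-15), and 2 light, beside the same 30.0% and 29.3%. Of the transcripts that hold a let-7 or miR-98 hairpin, 2 had enough counts. MIR100HG, which holds let-7a-2, had log2 ratios (labelled knockout over wild type) of -0.69 and -1.03, and HUWE1, a ubiquitin ligase whose introns hold let-7f-2 and miR-98, had 0.21 and 0.62.

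Across the table, genes with more let-7 matches had slightly higher median ratios of labelled knockout over wild type in heavy polysomes. In light polysomes the medians did not rise at each step. No spread of these medians was estimated. The 8377 genes with 0 matches had a median log2 ratio 0.02 below that of all 10215 protein-coding genes in heavy polysomes. The 1479 genes with 1 match stood 0.08 above it, the 284 with 2 matches 0.12 above and the 75 with 3 or more 0.13 above. In light polysomes genes with 0 matches stood at -0.003 and those with 1 match at -0.0003 from the median of all genes. Those with 2 stood 0.085 above and those with 3 or more 0.077 above. The median shift between fractions differed by class too. Relative to all genes it was -0.02 at 0 matches, 0.10 at 1, 0.13 at 2 and 0.14 at 3 or more. The part of the compressed labelled knockout gradient in these medians was not tested. In heavy polysomes the share of genes with a ratio above 0 was 44.9% at 0 matches and 54.3% at 1. It was 59.5% at 2 matches and 56.0% at 3 or more, beside 46.7% of all 10215 genes. In light polysomes these shares were 52.1%, 52.7%, 60.2% and 56.0%, beside 52.4% of all genes. The 6 genes with 5 or more matches, HMGA2 among them, stood 0.34 above in heavy and 0.34 above in light polysomes, too few genes for a firm median. The median 3′ UTR length moved with the number of matches, from 1101 nucleotides at 0 matches to 2766, 4552.5 and 7097 at 1, 2 and 3 or more, and its part in these values was not tested. By number of matches the 5 measured targets had no common order: HMGA2 with 7 stood at 0.32 in heavy polysomes, IGF2BP2 with 3 at -0.46, NRAS with 2 at 1.17, and HMGA1 and IGF2BP3 with 1 each at -0.55 and -1.77.

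The genes whose profile over the 4 libraries lay nearest to that of HMGA2 were TMEM219 and NTAN1, at Euclidean distances of 0.0690 and 0.0793 between log2 profiles centred on their own mean. They were the nearest of 9656 protein-coding genes that reached 100 counts in every library, a description over 4 libraries. Both hold 0 let-7 matches in their 3′ UTRs. LIN28B had too few counts for such a profile.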

How the data were processed

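Read counts per gene symbol were used as deposited; the authors did not normalise them, as far as whole numbers with unequal totals show. The submitters' processing notes list STAR, HTSeq, CASAVA and build hg19. No version, annotation or strand setting is given in the sources used here. All 4 columns matched a sample.

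Heavy was tested against light with edgeR 4.0.16 in R 4.3.3 (TMM, filterByExpr, quasi-likelihood test, gradient as a block, 1 residual degree of freedom; adjusted p under 0.05 called; SE taken from the F statistic). DESeq2 1.42.0 was an alternative. The p-values rest on 1 spread trend shared by all genes, drawn from the disagreement between 2 gradients that differ in genotype. A gene's own disagreement between the gradients hardly enters its p-value. For NRAS the edgeR adjusted p was 0.0150 without the gradient block. Genotype ratios and shifts are values with 95% counting intervals (prior count of 2; PCR reads are not independent molecules). Scripts were tested on simulated data. Of the symbols, 24427 matched GENCODE release 44 or RefSeq synonyms; GRCh38 served for positions and 3′ UTRs only.

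The targets, the lists of related genes and the tests were chosen with earlier results of these data known. Named were all 8 targets, DICER1, the 2 highest and 2 lowest of each related list by mean genotype ratio, and the genes nearest to HMGA2, of which 1 is not reported here.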

Additional observations from a re-analysis of the deposited data

Results flagged for a closer look

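IGF2BP2 had log2 ratios of opposite sign in the 2 fractions with TMM scaling. Between labelled knockout and wild type its log2 ratio was -0.46 in heavy but 0.13 in light polysomes. That difference is its shift of -0.59. In the bin of genes with the highest wild type heavy to light ratios, where IGF2BP2 lay, the median shift was -0.60. The difference was not tested, since each side rests on 1 pair of libraries. In light polysomes the ratio was 0.04 with library totals (counting interval -0.05 to 0.14), so there its direction is not resolved.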

How the results depend on the processing

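The calls of NRAS and HMGA2 toward light and of IGF2BP2 toward heavy polysomes held with RLE, library totals, DESeq2 and without the gradient block. HMGA1 lost its call with RLE (edgeR adjusted p = 0.0791) and without the block (0.0821), where 2183 genes were called light in place of 3977. With library totals 3197 genes were called heavy and 5020 light, against 4074 and 3977 with TMM, and IGF2BP1 and ARID3B turned to -0.073 and -0.21. From single gradients IGF2BP1 ranged from -0.44 to 0.94 and ARID3B from -0.060 to 0.14. Genes shifted 2-fold numbered 98 toward heavy and 257 toward light, 52 and 390 with RLE, 265 and 107 with library totals, and 23 and 18 relative to the line through all genes, where HMGA2 turned to -0.23. The shift of HMGA1 was -0.094 with RLE and 0.13 with library totals, beside medians over all genes of -0.12 and 0.09. With a minimum of 10 counts in each library, 249 genes shifted toward heavy. With a minimum of 20 counts in the higher library, 562 were 2-fold higher and 451 lower in heavy polysomes, and 600 were lower in light ones. At that minimum 2 targets were lower in light polysomes. IGF2BP1 was added on 7 counts in labelled knockout light against 23 in wild type light polysomes. The number of genes at that minimum is not given here, so no share stands beside these counts. With 8mers alone 5 targets held 8 matches. The causes were not tested. LIN28B, IGF2BP1 and ARID3B are limited by depth.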
